A study of Mus musculus with 4 samples.

Results

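The transcripts described here encode complement components and regulators: the 3 chains of C1q (C1qa, C1qb and C1qc), the central component C3, the C1 inhibitor Serping1, and the anaphylatoxin receptors C3ar1 and C5ar1. They were chosen by name, and every probe set annotated to exactly 1 of these 7 genes was taken. That gave 9 probe sets for 6 genes, of 22690 probe sets on each array. No probe set used bore the name C3, so C3 was not analysed here.

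Complement is a cascade of plasma and tissue proteins that tags microbes and cell debris for removal. C1q is the recognition molecule of the classical pathway. It is built from A, B and C chains, each with a collagen-like stem and a globular head, and tissue macrophages are a main source of it. Serping1 is secreted, among others by fibroblasts, and blocks the proteases that C1q activates. C3ar1 and C5ar1 are receptors of myeloid cells for the small fragments released when C3 and C5 are cleaved.

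Total RNA from mouse mitral valve was measured on 4 single-colour arrays. The Hom array was labelled Fbn1 C1039G/C1039G, the pair of Het arrays (replicates 1 and 2) Fbn1 C1039/+, and the WT array Fbn1 +/+; the Het label gives no substituted residue. Fbn1 encodes fibrillin-1, the microfibril protein of the extracellular matrix, and its own transcript was not analysed here. The sources used here give no age, sex, strain or pooling of animals. The spread behind a p-value came from the pair of Het arrays alone and may thus be technical.

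Values are intensities after each array was centred on a common median, and a pair of Het values gives replicate 1 and then replicate 2. Intensities of different probe sets cannot be set against each other. The floor for log2 differences was an intensity of 19.0, and genes were tested when their mean over the arrays reached 60.4. Het replicate 2 stood apart from the other arrays. The Actb 3′ to 5′ ratio, a gauge of RNA integrity, was 3.04 there, against 2.16 to 2.25 on the others. The geometric mean of the hybridization controls (bioB, bioC, bioD and cre), as deposited, was 560 there, against 1146 to 1682 on the others. The median of 7319 genes tested lay 0.19 log2 units above WT in Het replicate 2 after centring, against -0.02 in Hom and -0.002 in Het replicate 1. The Het replicate 2 offset was -0.05 on the deposited scale and -0.004 after quantile normalization. All 12 listed fibroblast or interstitial markers passed the filter.

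At all 5 probe sets of the C1q chains, Hom and Het replicate 1 lay below WT and Het replicate 2 was the highest array, except that WT was highest for C1qa and the main C1qb probe set after quantile normalization. C1qa read 304 in Hom, 234 and 433 in the Het arrays and 359 in WT. C1qc read 357 in Hom, 278 and 671 in the Het arrays and 395 in WT. After centring, the Het arrays, which share 1 genotype label, thus lay on opposite sides of WT for both genes. After quantile normalization both Het arrays lay below WT for C1qa. Het replicate 2 exceeded Het replicate 1 by 1.85-fold for C1qa and 2.42-fold for C1qc. The Het mean was 334 ± 140 for C1qa and 474 ± 279 for C1qc (SD, n = 2), a spread that takes in the Hom and WT values of both.

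C1qb had 3 probe sets, all highest in Het replicate 2 but by different amounts. The second, which had the highest mean and stood for the gene in the fit, read 313 in Hom, 316 and 525.5 in the Het arrays and 433 in WT. The first read 257 in Hom, 266 and 626 in the Het arrays and 297 in WT. The third read 96.0 in Hom, 67.6 and 579 in the Het arrays and 128 in WT. Het replicate 2 over Het replicate 1 was therefore 2.35-fold by the first, 1.66-fold by the second and 8.56-fold by the third. The identifiers of the second and the third are of the x_at type, which can bind several transcripts.

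No C1q gene passed the limma test, which compares group means with a spread and adjusts over all 7319 genes (Benjamini-Hochberg, threshold 0.05). That spread is the Het pair's own for the gene, moved by eBayes toward a value shared by all genes tested. Hom minus WT was -0.24 log2 units (SE 0.58) for C1qa, -0.47 (SE 0.56) for C1qb and -0.15 (SE 0.62) for C1qc. Het minus WT was -0.17 (SE 0.50), -0.09 (SE 0.49) and 0.13 (SE 0.54). All these differences were smaller than their standard errors, and the limma adjusted p was 0.9999 for each. After centring, the direction of Het against WT turned with the array left out. C1qa gave 0.27 without Het replicate 1 and -0.61 without Het replicate 2, and C1qc gave 0.76 and -0.51.

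**Figure D1:**
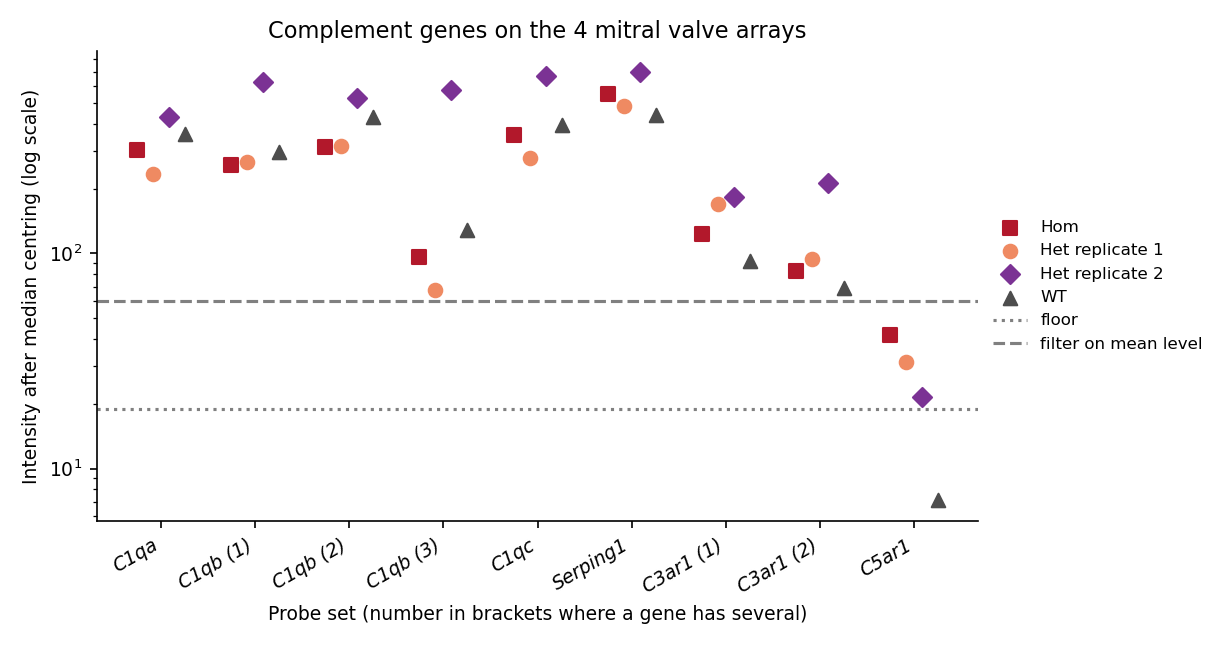
Intensity after median centring (log axis) of each of the 9 probe sets on the 4 arrays; each point is 1 array, and the lines mark the floor of 19.0 and the filter on mean level of 60.4. Het replicate 2 is highest at 8 of 9 probe sets (7 on the deposited scale, 4 after quantile normalization), WT is lowest at 4 (Serping1, both of C3ar1, and C5ar1), and the third C1qb probe set shows the widest gap, 579 in Het replicate 2 against 67.6 to 128 on the others.

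The C1q genes are neighbours in the RefSeq annotation of mouse chromosome 4, in the order C1qb, C1qc and C1qa. Because all 3 were highest in Het replicate 2 after centring, their start regions are shown, with 250 bases before and 50 after the start site, 5′ to 3′ on the gene's strand. Capitals mark the letters GAGGAA, the core bound by PU.1 and other ETS factors, on either strand. The sequences are from RefSeq, build GRCm38.p6. The C1qb region is chr4:136886151-136886450 and the C1qc region chr4:136892865-136893164, both on the minus strand.
C1qb: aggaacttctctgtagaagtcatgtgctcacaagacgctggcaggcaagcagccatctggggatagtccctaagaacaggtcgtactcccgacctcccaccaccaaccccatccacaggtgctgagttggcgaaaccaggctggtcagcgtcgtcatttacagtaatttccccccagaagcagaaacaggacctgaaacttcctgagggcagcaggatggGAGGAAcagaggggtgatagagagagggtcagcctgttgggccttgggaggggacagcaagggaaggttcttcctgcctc
C1qc: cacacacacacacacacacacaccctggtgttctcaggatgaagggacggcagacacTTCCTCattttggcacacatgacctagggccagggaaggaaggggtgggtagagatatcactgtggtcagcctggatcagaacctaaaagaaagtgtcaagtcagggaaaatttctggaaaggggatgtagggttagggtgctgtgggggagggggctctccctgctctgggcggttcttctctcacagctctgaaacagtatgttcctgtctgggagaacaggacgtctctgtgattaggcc

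The core lies at bases -30 to -25 of C1qb on the gene's strand and at bases -193 to -188 of C1qc on the opposite strand. It occurs in 28.3% of 32851 promoter windows of the same length. Neither window holds an interferon-stimulated response element (3.44% of windows), TTCNNNGAA (the gamma-activated site, 8.3%), TTGCNNAA (a C/EBP site, 10.8%) or an NF-kappaB site (1.47%), searched on both strands. The windows of C3ar1 and C5ar1 hold none of the 5 motifs, and that of C3 holds the C/EBP letters at bases -45 to -38 on the gene's strand. Windows were found for 5 of the 7 genes; C1qa and Serping1 had none in the table used.

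Serping1, the inhibitor of C1r and C1s, was lowest in WT. It read 554 in Hom, 487 and 697 in the Het arrays and 439 in WT, so each mutant array lay above WT. The Het mean was 592 ± 149 (SD, n = 2). WT stayed lowest under both other scalings, whereas the highest array changed from Het replicate 2 to Hom under quantile normalization. Hom was 1.26-fold, Het replicate 1 1.11-fold and Het replicate 2 1.59-fold above WT. In the limma fit Hom minus WT was 0.34 log2 units (SE 0.55), Het minus WT 0.41 (SE 0.47) and Hom minus Het -0.07 (SE 0.47). None passed, with an adjusted p of 0.9999 from limma for Hom and for Het against WT. The direction of Hom minus Het depended on the scaling, at 0.08 on the deposited scale and 0.13 after quantile normalization.

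C3ar1, the receptor of the C3a fragment, was likewise lowest in WT, by both of its probe sets. The first read 124 in Hom, 171 and 183 in the Het arrays and 92.7 in WT. Here the Het arrays averaged 177 ± 8.90 (SD, n = 2), within 1.07-fold of each other and 1.84-fold and 1.98-fold above WT. The second read 83.0 in Hom, 93.8 and 213 in the Het arrays and 68.8 in WT. By this one Het replicate 2 was 3.10-fold above WT and Het replicate 1 1.36-fold.

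By the first probe set, which stood for the gene, Het minus WT was 0.93 log2 units (SE 0.46), higher in 2 of 2 Het arrays and at rank 141 of 7319 genes by size. The limma p was 0.0609 before adjustment, with the adjusted p at 0.9999, so C3ar1 did not pass. By the second probe set, fitted among all probe sets with no filter, Het minus WT was 1.04 (SE 0.85). In that fit the limma adjusted p was 0.524 for the first and 1 for the second. The SE of the first for Het minus WT was only 0.08 there, against 2.22 for the third C1qb probe set. That small SE rested mostly on 2 close Het readings, with 1 residual degree of freedom. The limma p of the first before adjustment then lay under 0.05 for Het against WT and for Hom against Het. With the filter, Hom minus WT was 0.42 (SE 0.53) and Hom minus Het -0.51 (SE 0.46) by the first probe set, neither past the limma threshold.

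C5ar1, the receptor of the C5a fragment, was dim. Its only probe set read 41.6 in Hom, 31.3 and 21.6 in the Het arrays and 7.17 in WT, a mean that lay at percentile 29.4 of all probe sets. It did not reach the filter and was not tested with the other genes. WT was below the floor, so Hom was at least 2.19-fold, Het replicate 1 at least 1.65-fold and Het replicate 2 at least 1.14-fold above it. These are bounds between dim values, and with no filter the limma adjusted p was 1 in each comparison.

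Of the 7 genes, 5 passed the filter, and their counts are read against all 7319 genes tested. In the limma test 0 of the 5 passed for Hom against WT, Het against WT or Hom against Het, where 0%, 0.0137% and 0% of all genes did; at an unadjusted p under 0.05 it was 0 of 5 in each, where 0.437%, 1.15% and 0.861% of all genes passed. By the probe sets fitted, none was 2-fold from WT on any mutant array. Of all genes, 0.437% were 2-fold higher and 0.465% lower in Hom, 0.669% and 0.943% in Het replicate 1, and 5.27% and 1.72% in Het replicate 2. That excess of higher genes in Het replicate 2 depended on the scaling: 386 were higher and 126 lower after centring, 170 and 270 on the deposited scale, and 167 and 167 after quantile normalization.

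At 1.5-fold, 0 of 5 differed from WT in Hom, where 3.29% of all genes were higher and 3.25% lower. In Het replicate 1, C3ar1 was higher, as were 4.54% of all genes, and C1qa lower, as were 5.26%. In Het replicate 2, C1qc, Serping1 and C3ar1 were higher, as were 21.3%, and 0 of 5 lower, as were 6.71%. On the deposited scale and after quantile normalization, C3ar1 alone of these reached 1.5-fold in Het replicate 2. Between the Het arrays after centring, C1qc was at least 2-fold higher in Het replicate 2, as were 6.98% of all genes. All 3 C1q genes were at least 1.5-fold higher there, as were 22.9%. C1qb and C1qc were at least 1.5-fold lower in Hom than in Het replicate 2 after centring, as were 21.6%. These calls depended on the scaling. After quantile normalization the Het arrays read 244 and 363 for C1qa, 333 and 438 for C1qb, and 290 and 561 for C1qc. Only C1qc then stayed at least 1.5-fold higher in Het replicate 2, and it was under 2-fold. Hom then read 338 for C1qb and 386 for C1qc, both within 1.5-fold of Het replicate 2.

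Serping1 and C3ar1 alone of the 5 lay above WT in Hom, as did 46.7% of all genes, and in Het replicate 1, as did 49.7%. All 5 exceeded WT in Het replicate 2, as did 64.8%, and all 5 were highest there, as were 51.3%, both after centring. After quantile normalization C1qa and C1qb were neither above WT nor highest in Het replicate 2, Serping1 was highest in Hom, and C3ar1 was highest in Het replicate 1, as it also was on the deposited scale. C1qc was highest in Het replicate 2 under all 3 scalings. Het replicate 1 was the lowest array for C1qa and C1qc, as it was for 28% of all genes. After centring, each C1q gene had Het replicate 2 over WT and Het replicate 1 under it, a pattern of 29.3% of all genes. WT was the lowest array for Serping1 and C3ar1, as for 24% of all genes.

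The median of the 5 genes was -0.15 log2 units in Hom, -0.46 in Het replicate 1 and 0.67 in Het replicate 2 relative to WT, against the medians of all genes given above. The 3 comparisons with WT share that 1 array.

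**Figure D2:**
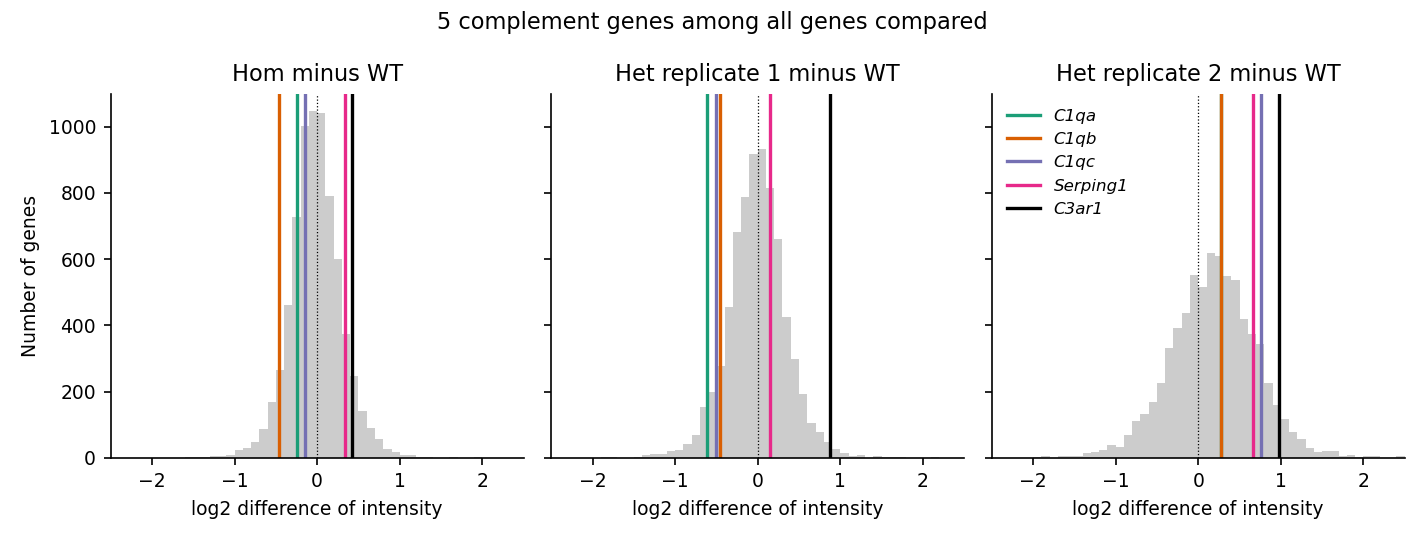
Histograms of the log2 difference of intensity from WT over 7319 genes (number of genes per bin) in Hom, Het replicate 1 and Het replicate 2; coloured lines mark the 5 complement genes tested. The C1q lines lie left of 0 in Hom and Het replicate 1 and right of it in Het replicate 2 (C1qa and C1qb are at -0.04 after quantile normalization), where C1qa (0.27) is hidden behind C1qb (0.28) and the histogram is wider and shifted by 0.19.

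The size and, for part of the C1q signal, the direction of Het replicate 2 against WT depended on the scaling. C1qa lay at 0.27 log2 units relative to WT after median centring, 0.03 on the deposited scale and -0.04 after quantile normalization. C1qb by its main probe set gave 0.28, 0.04 and -0.04. C1qc kept its direction, at 0.76, 0.53 and 0.45, as did Serping1 (0.67, 0.43 and 0.35) and C3ar1 (0.98, 0.74 and 0.81). Het replicate 2 was highest at 8 of 9 probe sets after centring, 7 as deposited and 4 after quantile normalization. The values in Het replicate 1 moved little: C1qa gave -0.61, -0.60 and -0.61, and C1qc -0.51, -0.49 and -0.50.

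**Figure D3:**
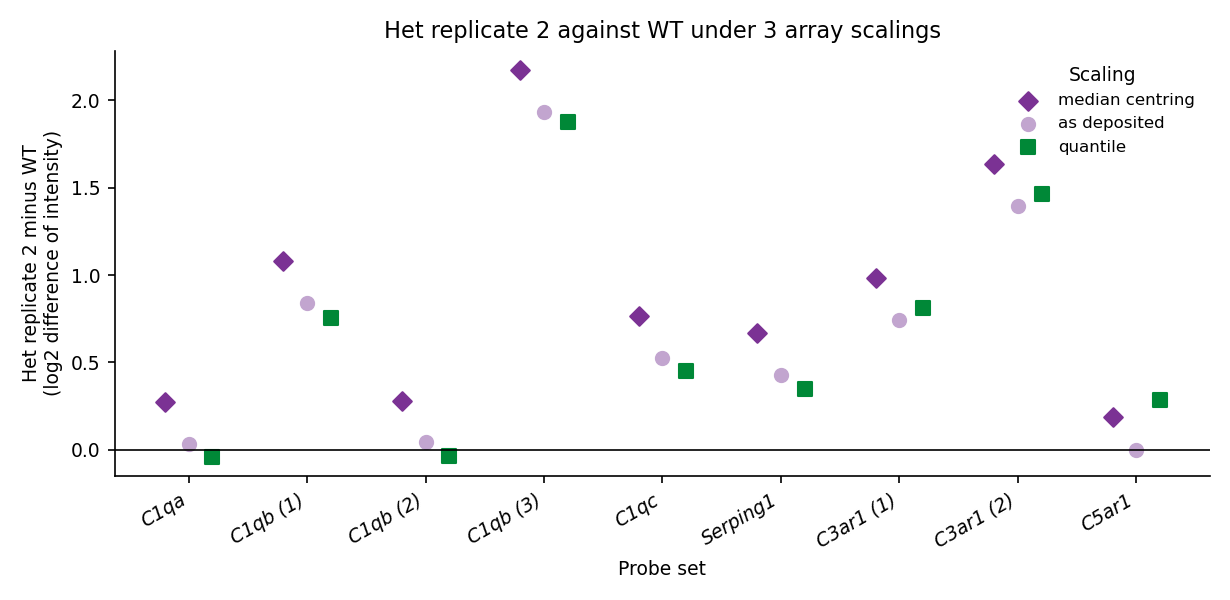
Het replicate 2 minus WT (log2 difference of intensity) at each of the 9 probe sets under median centring, the scaling as deposited and quantile normalization; each point is 1 difference. C1qa and the second C1qb probe set drop to -0.04 after quantile normalization, while the third C1qb probe set stays between 1.87 and 2.17.

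After median centring, most macrophage markers lay above WT in Het replicate 2, as did the C1q genes. C1qa (0.27 log2 units) and the main C1qb probe set (0.28) did so by less than the marker median. Of 23 listed markers, 22 had a probe set and 17 passed the filter. Their median was 0.05 log2 units above WT in Hom, -0.01 in Het replicate 1 and 0.80 in Het replicate 2, and 10, 8 and 15 of the 17 lay above WT. The summed intensity of the 22 was 4856 in Hom, 4444 and 8974 in the Het arrays and 4826 in WT, and Marco was at the floor on every array. Csf1r, the receptor of the macrophage growth factor, read 1201.5 in Hom, 978 and 2164 in the Het arrays and 1243 in WT. The cathepsin Ctss read 762 in Hom, 667 and 1091 in the Het arrays and 829 in WT. In bulk tissue, fewer cells of a type and less RNA per cell cannot be told apart, and the part of these cells in the C1q values was not tested.

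The C1q genes did not follow the median of the macrophage markers on every array. Single markers differed in this: Csf1r and Ctss had the order of arrays of C1qa and C1qc, whereas Adgre1 did not. Relative to the markers' median difference from WT, C1qa lay at -0.29 log2 units in Hom, -0.60 in Het replicate 1 and -0.53 in Het replicate 2. C1qb lay at -0.52, -0.44 and -0.52 by its main probe set, but at 0.28 and 1.37 in Het replicate 2 by the others. C1qc lay at -0.20, -0.50 and -0.04. Of the 17 markers, 1 in Hom, 1 in Het replicate 1 and 3 in Het replicate 2 had a difference from WT below the mean of the C1q genes. C3ar1 stood on the other side, at 0.36, 0.89 and 0.18 by its first probe set and at 0.22, 0.46 and 0.83 by its second. On means, the C1q genes exceeded the 17 markers by 0.76 log2 units in Hom, 0.56 in Het replicate 1 and 0.60 in Het replicate 2, against 1.12 in WT. Only the change of that gap across arrays can be read, since the probe sets differ. These are descriptions of single arrays, with no test.

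Other cell markers also differed on Het replicate 2. The fibroblast or interstitial markers, 12 of 12 past the filter, had medians of -0.32 in Hom, -0.29 in Het replicate 1 and -0.64 in Het replicate 2 relative to WT. Dcn, the proteoglycan decorin, read 10878 in Hom, 14146 and 8043 in the Het arrays and 13527 in WT. Vim, vimentin, read 9242 in Hom, 10641 and 7841 in the Het arrays and 11761 in WT. Serping1 was thus higher on the mutant arrays where these markers were mostly lower, and the part of either in the other was not tested. The cardiomyocyte median was -0.07, 0.42 and -0.81, and the endothelial median -0.19, -0.12 and -0.40. Of 9 listed erythroid markers, 4 had a probe set and 2 passed the filter. The summed intensity of the 4 was 1312 in Hom, 1067 and 3043 in the Het arrays and 1160 in WT. Most of it was the single probe set of Alas2, which read 1176 in Hom, 918 and 2578 in the Het arrays and 1032 in WT. Few neutrophil (2 of 10) and lymphocyte (1 of 6) markers reached the filter.

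**Figure D4:**
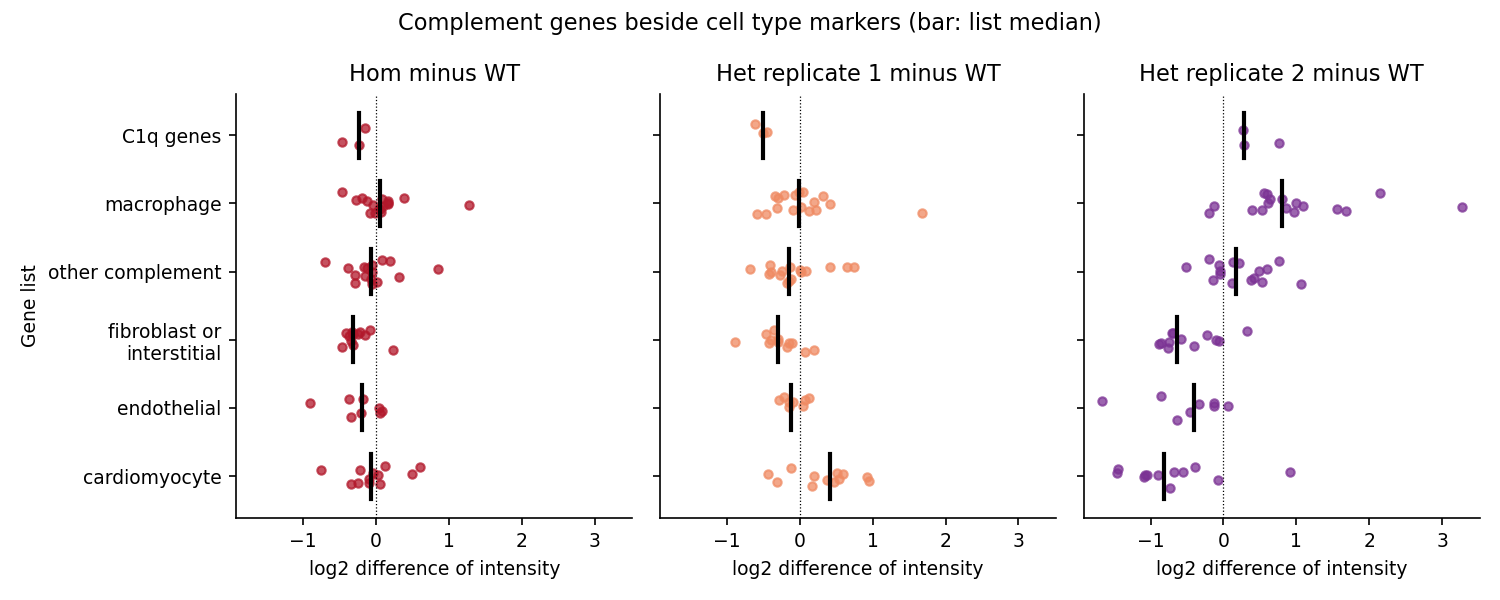
log2 difference of intensity from WT on each mutant array for genes past the filter in 6 lists; each point is 1 gene and the black bar the list median. In Het replicate 2 the macrophage median is 0.80 and the cardiomyocyte median -0.81, and in Het replicate 1 all 3 C1q genes lie left of 0 while the macrophage median is at -0.01.

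The rest of the pathway was described from a list of 54 other complement genes, of which 39 had a probe set and 16 passed the filter. Of these 16, 0 passed the limma test in any comparison, also 0 at an unadjusted p under 0.05, and their medians relative to WT were -0.06 in Hom, -0.14 in Het replicate 1 and 0.17 in Het replicate 2. Among the recognition molecules and proteases of the classical and lectin pathways, 3 of 9 passed the filter. C1ra, picked after seeing its values, encodes a protease of the C1 complex and read 26.9 in Hom, 16.3 and 19.3 in the Het arrays and 20.9 in WT, close to the floor. Of the alternative pathway and terminal components 0 of 8 passed, and 4 were at the floor on every array.

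Among the regulators, 6 of 13 passed. Cd55, which speeds the decay of the C3 convertase, read 173 in Hom, 175 and 305 in the Het arrays and 281 in WT. It was 1.62-fold lower than WT in Hom and 1.61-fold lower in Het replicate 1. In Het replicate 2 it lay 0.12 log2 units above WT after centring, less than the offset of 0.19 of all genes there. Cd46, a cofactor for the cleavage of C3b, read 84.2 in Hom, 73.0 and 70.2 in the Het arrays and 46.6 in WT, and was higher on all mutant arrays at a low intensity. Neither passed, with SEs on the log2 scale of 0.57 and 0.53 for Hom minus WT. Clu, clusterin, an inhibitor of the terminal complex also picked after seeing its values, read 1828 in Hom, 2240 and 3799 in the Het arrays and 2237 in WT.

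Of the receptors, 7 of 9 passed the filter. Itgb2, the beta chain of complement receptors on leukocytes, read 66.0 in Hom, 61.6 and 169 in the Het arrays and 80.7 in WT. It had the order of arrays of C1qa and C1qc, with Het replicate 2 highest and Het replicate 1 lowest. It was the only 1 of the 16 at least 2-fold from WT on any array, in Het replicate 2 after centring. It lay at 1.07 log2 units there, where the offset of all genes was 0.19. There 5.27% of all genes tested were at least 2-fold higher and 1.72% lower, shares that depended on the scaling.

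Many genes shared these patterns. The mean profile of C1qa, C1qb and C1qc relative to WT was -0.28 in Hom, -0.53 in Het replicate 1 and 0.44 in Het replicate 2. Likeness was measured as the mean absolute difference in log2 units over the 3 mutant arrays. The nearest genes were Svil, the actin-binding supervillin (0.02), Naca, of the nascent polypeptide-associated complex (0.02), the tRNA-modifying enzyme Trnt1 (0.03), the microtubule-severing spastin gene Spast (0.04) and the deubiquitinase Usp4 (0.05), and 543 genes lay within 0.2. For Serping1 they were Stil, of centriole duplication (0.01), the spermidine synthase Srm (0.02), Pgls, of the pentose phosphate pathway (0.02), the mitotic checkpoint kinase Bub1b (0.03) and the mitochondrial ribosomal protein Mrps34 (0.04), and 925 lay within 0.2.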

How the data were processed

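The authors deposited 1 intensity per probe set and array on a linear scale; the software behind it is not given in the sources used here, and from the values trimmed means lay between 150.05 and 150.06. Each array was centred on the mean of the 4 log2 medians, floored at percentile 25 of all values and log2 transformed. Probe sets were named from the platform annotation, with symbols updated through RefSeq gene identifiers; 20393 named 1 gene, 691 several and 1606 none, and 64 controls were left out. A gene was tested when its probe set mean reached the median of all probe sets, with its brightest probe set standing for it. A 3-group fit with limma 3.58.1 in R 4.3.3 (lmFit, eBayes) took its spread from the Het arrays alone (1 residual degree of freedom), so the lone Hom and WT arrays are assumed to vary as much. The spread of each gene was moved by eBayes toward a value shared by all genes in the fit, so SEs and p-values rest on other genes too. Precision is limited by having 4 arrays. The members, gene lists and motifs were chosen with earlier results of these data known. The rule for named genes took all members, other complement genes at least 1.5-fold from WT in Hom or on both Het arrays in 1 direction, or 2-fold on any array, the 2 brightest markers of a cell type list, and the 5 nearest patterns. C1ra, Clu, Cebpd, Spi1 and Marco fall outside it and were picked after seeing their values. Alternatives covered scaling, filter, floor, probe sets, each Het array and eBayes options. Python 3.11.15 with matplotlib 3.10.9 drew the plots.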

Additional observations from a re-analysis of the deposited data

How the results depend on the processing

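No member passed the limma test under any alternative tried, and the lowest adjusted p was 0.524, for C3ar1 in Het against WT with every probe set fitted on its own and no filter. C3ar1 was not tested with the filter at percentile 75, which it did not reach. The count of genes called moved with the settings. For Het against WT, 1 gene was called in the reported setting, 4 after quantile normalization, and 0 with the scaling as deposited, no filter, no floor, an offset of 50 in place of the floor, or every probe set on its own with no filter. For Hom against Het, 0 were called in the reported setting, 4 after quantile normalization, and 1 with the filter at percentile 75, the mean of all probe sets, or eBayes with trend and robust options. With no filter, by gene or with every probe set on its own, C5ar1 entered and 1 member was at least 2-fold above WT in Hom. With the mean of all probe sets, 2 members were at least 2-fold above WT in Het replicate 2 (C1qb at 1.18 and C3ar1 at 1.31 log2 units). With a fold of 1.5, 1 member was higher and 1 lower in Het replicate 1, and 3 were higher in Het replicate 2; apart from what each setting changes by construction, the cause was not tested. The median of members minus WT ranged from -0.19 to 0.09 in Hom, from -0.51 to -0.15 in Het replicate 1 and from 0.35 to 0.76 in Het replicate 2. Without either Het array no residual degree of freedom remains, so those fits gave values and no test. No paired analysis was possible because WT and Hom have 1 array each and their labels carry no replicate number.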

Other observations

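Transcription factors known to act on complement genes were listed as well. Of 13, 10 had a probe set and 5 passed the filter, and 0 of these passed the limma test in any comparison; at an unadjusted p under 0.05 it was also 0. Their median relative to WT was -0.06 log2 units in Hom, -0.02 in Het replicate 1 and -0.17 in Het replicate 2. Cebpd, a factor of the acute-phase response, read 212 in Hom, 129 and 291 in the Het arrays and 144 in WT. It was the 1 factor of these 5 at least 2-fold above WT, at 1.02 log2 units in Het replicate 2 after centring. The offset of all genes there was 0.19. On that array 5.27% of all genes tested were at least 2-fold higher, a share that depended on the scaling. Spi1, which encodes the myeloid factor PU.1, did not reach the filter and read 46.8 in Hom, 40.8 and 72.0 in the Het arrays and 63.6 in WT. After centring, its order of arrays, with Het replicate 2 highest and Het replicate 1 lowest, was that of C1qa and C1qc. Het replicate 2 was highest for 51.3% and Het replicate 1 lowest for 28% of all genes tested. Spi1 lay 0.18 log2 units above WT in Het replicate 2, less than the offset of 0.19 of all genes there. Whether it bears on the C1q values was not tested. Cebpd and Spi1 were picked after seeing their values.

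Liver-type transcripts, listed because the liver makes most plasma complement, were dim except for Ahsg. The plasma glycoprotein gene Ahsg read 430 in Hom, 391 and 978 in the Het arrays and 395 in WT, while albumin, Alb, read 55.7 in Hom, 88.3 and 63.2 in the Het arrays and 45.4 in WT.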
